A study of Mus musculus with 4 samples.

Results

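The BPI-fold genes described here are Bpifa1, Bpifb1, Bpifb3, Bpifb4, Bpifb5, Bpifb6, Bpifb9a and Bpifb9b. They were taken by symbol and make up 8 of the 23337 genes counted. RNA-seq measured their transcripts in Tomato-positive cells, which were sorted from olfactory epithelium after its regeneration in 4 mice, with 1 mouse for each library. All mice carried K5Cre, which drives Cre recombinase from the Keratin 5 promoter, and the R26 Ai9 allele, a red fluorescent (Tomato) reporter that Cre switches on. By the paper, Keratin 5 within the olfactory epithelium is limited to horizontal basal cells, the quiescent stem cells. Tomato there marks these cells and what they give rise to. The sort started from dissected olfactory mucosa, and genes of leukocytes and ciliated respiratory cells also had reads. Whether all sorted cells came from horizontal basal cells was not tested. The 2 control libraries came from K5Cre;Lmnb1 fl/+ mice, whose sorted cells are Lmnb1+/-. The 2 mutant libraries came from K5Cre;Lmnb1 fl/fl mice, whose tissue was mosaic and whose sorted cells are labelled Lmnb1-/-. All were adult mice of mixed background, with the K5Cre and Lmnb1 fl lines backcrossed to B6. They were given 2 injections of 50 mg/kg methimazole, a drug that destroys the epithelium, and left to recover for 4 weeks. Control 1 and mutant 1 formed experimental group 1, and control 2 and mutant 2 formed experimental group 2. Littermates within a group shared sex, age, treatment, preparation and sequencing. By the design text of the series, the groups differed in parents, age, sex and treatment, although the labelled dose and recovery time are equal, and preparation and sequencing are stated to be shared within a group only.

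BPI-fold proteins, several of which are secreted, are related to the bactericidal/permeability-increasing protein of neutrophils. They carry a fold with a hydrophobic pocket that can hold lipids. The A members have 1 such domain and the B members have a pair. Bpifa1 (also SPLUNC1) and Bpifb1 (LPLUNC1) are abundant in mucus of the nose and upper airways, where they are made by surface secretory cells and glands and take part in defence and in the fluidity of the mucus. Bpifb3, Bpifb4, Bpifb6, Bpifb5, Bpifb9a and Bpifb9b are less studied members of the long group, and roles for them are not assigned here.

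All members lay in a single cluster on the plus strand of mouse chromosome 2, over 420.3 kb between 153900388 and 154320646 (GRCm38/mm10, GENCODE annotation). In the order of the chromosome they were Bpifb6, Bpifb3, Bpifb4, Bpifa1, Bpifb1, Bpifb5, Bpifb9a and Bpifb9b. Bpifa1 (ENSMUSG00000027483) spanned 154142880 to 154149219 with 9 exons, and Bpifb3 (ENSMUSG00000068008) spanned 153918230 to 153932996 with 16 exons. Bpifb9a (ENSMUSG00000067998) and Bpifb9b (ENSMUSG00000067996) had 15 exons each, from 154257854 to 154271245 and from 154307227 to 154320646.

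The sequences upstream of Bpifa1, the most abundant member, and of Bpifb9a and Bpifb9b, the members that were higher in mutants, are shown because these alone of the members held the TATAAA motif in their RefSeq promoter windows. Bpifb6 is shown beside them as a member without it. Each is the 200 bases before the RefSeq start on the plus strand of GRCm38.p6, at chr2:154142680-154142879, chr2:154257679-154257878, chr2:154307044-154307243 and chr2:153900188-153900387, and capitals mark TATAAA in the first 3 and CCCNNGGG in the last.
Bpifa1: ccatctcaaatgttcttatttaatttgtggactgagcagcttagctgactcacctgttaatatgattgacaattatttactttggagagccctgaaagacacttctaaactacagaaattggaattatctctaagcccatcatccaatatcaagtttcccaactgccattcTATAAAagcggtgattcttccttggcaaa
Bpifb9a: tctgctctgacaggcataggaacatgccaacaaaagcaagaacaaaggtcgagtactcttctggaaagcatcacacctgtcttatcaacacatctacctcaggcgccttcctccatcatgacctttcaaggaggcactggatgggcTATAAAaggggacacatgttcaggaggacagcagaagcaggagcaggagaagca
Bpifb9b: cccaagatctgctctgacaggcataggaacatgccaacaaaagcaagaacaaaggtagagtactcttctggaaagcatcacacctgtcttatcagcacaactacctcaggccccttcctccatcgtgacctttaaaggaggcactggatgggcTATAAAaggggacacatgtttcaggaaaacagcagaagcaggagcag
Bpifb6: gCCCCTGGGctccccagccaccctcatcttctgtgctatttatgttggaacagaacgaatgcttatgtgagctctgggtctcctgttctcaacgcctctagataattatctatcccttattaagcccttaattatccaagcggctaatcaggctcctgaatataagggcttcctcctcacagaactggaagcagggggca

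In the RefSeq promoter windows, which run from 250 bases before to 50 after the start, 3 motifs were searched on both strands. TATAAA began 29 bases before the RefSeq start of Bpifa1, 54 before that of Bpifb9a and 47 before that of Bpifb9b. Counted from the GENCODE starts, the distances were 29, 29 and 30 bases. TATAAA was present in 13.6% of all 32851 windows. CCAAT, present in 37.4% of windows, was found in those of Bpifa1 and Bpifb4, and CCCNNGGG, the core of the Ebf type of site and present in 13.7%, in those of Bpifb3 and Bpifb6. A match is a run of letters and does not show binding. The windows of Bpifb9a and Bpifb9b were 90.6% identical in a global alignment.

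Between 14833396 and 23704638 reads were assigned to genes per library, and 3 counts, the limit that a count of 0 allows, corresponded to 0.127 to 0.202 CPM (counts scaled to the library's total of assigned reads). Mutant 1 stood apart: 39.4% of its uniquely aligned reads fell outside genes, against 22.1% to 24.9% in the other libraries, and 1603 genes had no count in it, against 5173 or more. Where a member's count in mutant 1 was small enough for this to matter, a predicted evenly spread share is given. Reads of Lmnb1, the targeted gene, stood at 20.1 and 18.5 CPM in controls 1 and 2 and at 14.7 and 10.04 CPM in mutants 1 and 2. Its fitted log2 change was -0.72 (SE 0.31, n = 2 per genotype, edgeR adjusted p = 0.195). The counts cover the whole gene and not the deleted exon alone. Omp and the other 5 mature neuron markers were detected in every library, as were the 5 horizontal basal markers, so the sorted cells held several cell types. In such bulk samples, fewer cells of a type and less RNA per cell cannot be told apart.

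Bpifa1 dominated the family. It took 1.22% of all assigned reads in control 1 (95% Wilson interval 1.218% to 1.227%), 5.88% in control 2 (5.871% to 5.891%), 1.41% in mutant 1 (1.401% to 1.411%) and 6.30% in mutant 2 (6.291% to 6.316%). These intervals cover counting error only. In experimental group 2, Bpifa1 had more reads than any other gene, and in experimental group 1 its rank was 3. Of the reads of all 8 members, Bpifa1 took 82.8% and 94.5% in controls 1 and 2, and 86.6% and 97.8% in mutants 1 and 2. The family together held 1.48% and 6.23% of assigned reads in controls 1 and 2, and 1.62% and 6.45% in mutants 1 and 2.

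Per kilobase of transcript, the levels of the members spread over several orders of magnitude. Bpifa1 was highest in every library, at 11060 to 57000 CPM per kb. Bpifb3 was second in every library, at 407.4 to 1107 CPM per kb. Below it the order depended on the library: Bpifb6 stood at 51.3 to 387.9, Bpifb4 at 132.7 to 316.9, Bpifb1 at 15.8 to 144.6, Bpifb9b at 1.52 to 107.7 and Bpifb9a at 0.883 to 29.3 CPM per kb. These 5 ranges overlapped one another, apart from that of Bpifb9a with those of Bpifb6 and Bpifb4, and that of Bpifb9b with that of Bpifb4. Bpifb5 was lowest in every library, at 0.0286 to 1.96 CPM per kb.

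**Figure D1:**
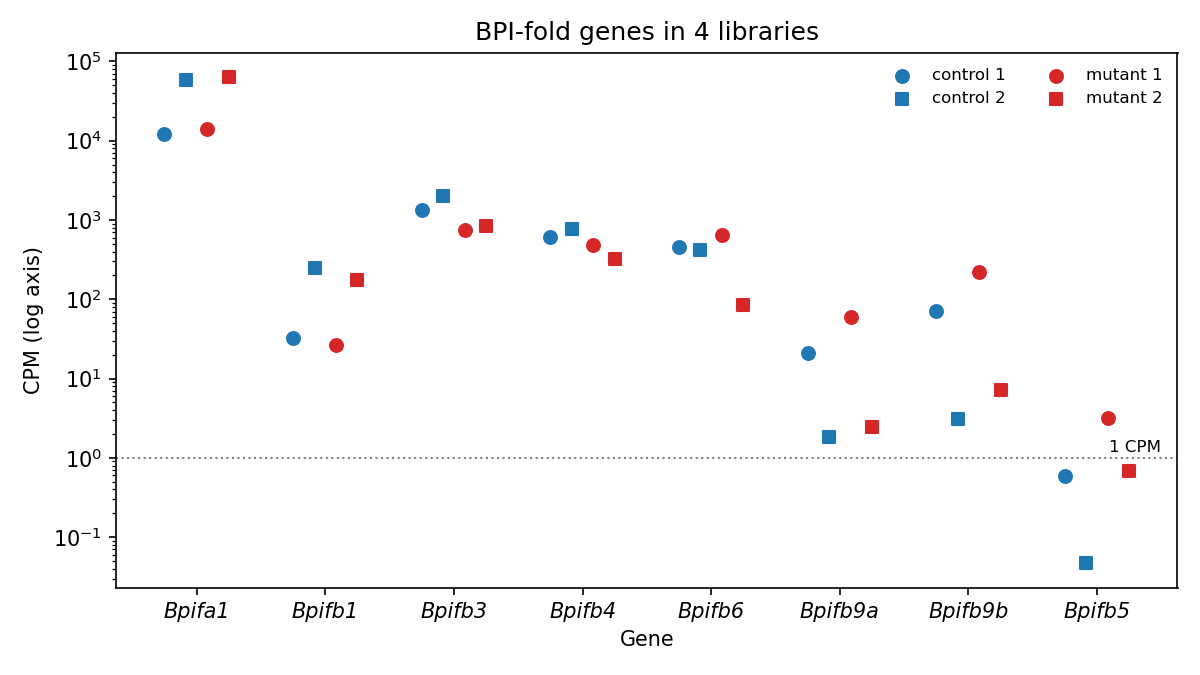
Level of each BPI-fold gene in CPM (log axis) in the 4 libraries. Each point is 1 library, blue for control and red for mutant, with circles for experimental group 1 and squares for experimental group 2, and the dotted line marks 1 CPM. Squares lie above circles for Bpifa1 and Bpifb1 and far below them for Bpifb9a and Bpifb9b, and red points lie below blue ones for Bpifb3 and Bpifb4.

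The comparison of mutant with control asked which members differed between sorted cells labelled Lmnb1-/- and Lmnb1+/-. Lamin B1 is a protein of the nuclear lamina, and the study found that a small minority of Tomato-positive mutant cells still stained for it. Bpifb3 was 2.17-fold lower in mutants, and Bpifb9a and Bpifb9b were 2.06-fold and 2.68-fold higher. Bpifa1, Bpifb1, Bpifb4 and Bpifb6 did not pass the test. A member was tested where it had more than 1 CPM in at least 2 libraries, which 7 of the 8 members did. The fit held genotype and experimental group, and the p-values, from edgeR's likelihood-ratio test, were adjusted by the Benjamini-Hochberg method over 15438 genes, with a threshold of 0.05. Of the 7 members tested, 1 was lower, where 4.3% of all tested genes were, and 2 were higher, where 1.28% were. The median log2 fold change was -0.44 over the tested members and -0.01 over all tested genes. The CPM of controls and mutants did not overlap for 2 of the tested members, Bpifb3 and Bpifb4, where they did not for 25.7% of all tested genes. With 2 mice per genotype, an exact permutation test on a single gene that shuffles all 4 libraries, ignoring the pairs, cannot go below p = 0.333. A permutation that kept the littermate pairs has fewer arrangements and a higher limit. The calls therefore rest on the spread shared across genes in the fit. With genotype alone in the model, without the replicate block for experimental group, none of the members passed by edgeR's likelihood-ratio test, and 0 had an unadjusted p under 0.05. On simulated counts, this test found 25 of 100 genes changed by 1 on the log2 scale and 99 of 100 changed by 2. Recovery at the spread and read number of each member was not tested.

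For Bpifa1, controls 1 and 2 had 12230 and 58810 CPM, and mutants 1 and 2 had 14060 and 63040 CPM. Within each experimental group, mutant and control were close, and the groups lay far apart. Its log2 ratios of mutant to control were 0.11 and 0.08 within experimental groups 1 and 2. The fitted log2 fold change was 0.10 (SE 0.38, 95% interval -0.64 to 0.83, edgeR adjusted p = 0.961). The interval leaves room for a change in either direction of over 1.5-fold.

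Bpifb1, found with Bpifa1 in airway mucus, stood at 32.2 and 245.6 CPM in the controls of experimental groups 1 and 2, against 26.8 and 173.5 CPM in the mutants. Each mutant was below the control of its own experimental group, and controls and mutants overlapped across the groups. Its fitted change of -0.44 on the log2 scale (SE 0.18, 95% interval -0.80 to -0.08) did not pass after adjustment (edgeR adjusted p = 0.162). Within a library, Bpifa1 had 379.4 and 239.5 times the reads of Bpifb1 in controls 1 and 2, and 525.2 and 363.3 times in mutants 1 and 2.

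Bpifb3, known earlier as Rya3, had 1343 and 2016 CPM in controls 1 and 2, and 741.8 and 839.7 CPM in mutants 1 and 2. Both mutants were below both controls. Its log2 ratios were -0.95 and -1.28 within experimental groups 1 and 2, and the fitted log2 fold change was -1.12 (SE 0.28, edgeR adjusted p = 0.00415). The call was lost without a filter on low counts (adjusted p = 0.448), where the log2 fold change was -1.09 (SE 0.74).

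Bpifb4, the neighbour of Bpifb3 on its distal side, was at 612.5 and 766.9 CPM in controls 1 and 2, and at 480.4 and 321.2 CPM in mutants 1 and 2. Here too both mutants were below both controls. Within the groups its log2 ratios were -0.44 and -1.27, and the fitted value of -0.86 (SE 0.28) fell just outside the threshold (edgeR adjusted p = 0.0502). The quasi-likelihood test (adjusted p = 0.0363) and DESeq2 (adjusted p = 0.000115) placed it inside. Bpifb3 had 2.19, 2.63, 1.54 and 2.61 times the reads of Bpifb4 in control 1, control 2, mutant 1 and mutant 2.

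Bpifb6, the neighbour of Bpifb3 on its proximal side, gave 459.7 and 421.5 CPM in controls 1 and 2, but 647.3 and 85.7 CPM in mutants 1 and 2. Mutant 1 was the highest library and mutant 2 the lowest, with both controls in between. The log2 ratios were 0.40 and -2.32 in experimental groups 1 and 2. The fitted log2 fold change was -0.96 (SE 0.46, 95% interval -1.86 to -0.05, edgeR adjusted p = 0.359), and with opposite directions in the 2 groups it describes neither of them. The ratio of Bpifb6 to Bpifb3 reads was 0.342, 0.209, 0.873 and 0.102 in control 1, control 2, mutant 1 and mutant 2.

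Bpifb9a was at 20.8 CPM in control 1 and 60.5 CPM in mutant 1, and at 1.82 and 2.43 CPM in the pair of experimental group 2. Each mutant was above its own control, and control 1 was above mutant 2. The log2 ratios were 1.45 and 0.38 in experimental groups 1 and 2, the second from 39 and 36 reads in libraries of unequal depth. The fitted log2 fold change was 1.05 (SE 0.32, edgeR adjusted p = 0.0334). The call was lost under the quasi-likelihood test (adjusted p = 0.0894), DESeq2 (adjusted p = 0.0939) and without the filter (adjusted p = 0.0634).

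Bpifb9b was at 71.2 CPM in control 1 and 222.6 CPM in mutant 1, and at 3.13 CPM in control 2 and 7.15 CPM in mutant 2. The pattern over the libraries was that of Bpifb9a, with each mutant above its own control. Its log2 ratios were 1.55 and 1.15 in experimental groups 1 and 2, and the fitted log2 fold change was 1.42 (SE 0.19, edgeR adjusted p = 1.61e-10). This call held under each other test, filter and scaling that kept the experimental group in the model, and not without it.

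Reads of Bpifb9a and Bpifb9b could not always be told apart. Their transcripts were 99.2% identical (2051 of 2067 aligned positions), and 71.4% of all 50-base stretches, the length of the reads, were shared between them, while no other member shared such a stretch with another gene. Counting with HTSeq leaves out reads with more than one alignment, so both counts rest on the remaining positions. Bpifb9b had 3.43, 1.72, 3.68 and 2.94 times the reads of Bpifb9a in control 1, control 2, mutant 1 and mutant 2. With the reads of both summed, an analysis chosen after the data were seen, the log2 fold change was 1.28 (SE 0.21, edgeR adjusted p = 5.16e-07).

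Bpifb5 was at the edge of detection. The controls had 14 reads (0.591 CPM) and 1 read (0.0468 CPM), and the mutants had 71 reads (3.21 CPM) and 10 reads (0.674 CPM), each in experimental groups 1 and 2. Both mutants were above both controls in CPM, but only mutant 1 exceeded 1 CPM, so the gene was not tested. At the median density of reads over 3739 genes with no reads in the other 3 libraries, 1.81 counts per kb, 2.96 of the 71 reads in mutant 1 would be expected from evenly spread reads. Fitted without the filter, the log2 fold change was 2.89 (SE 1.37, edgeR adjusted p = 0.326).

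**Figure D2:**
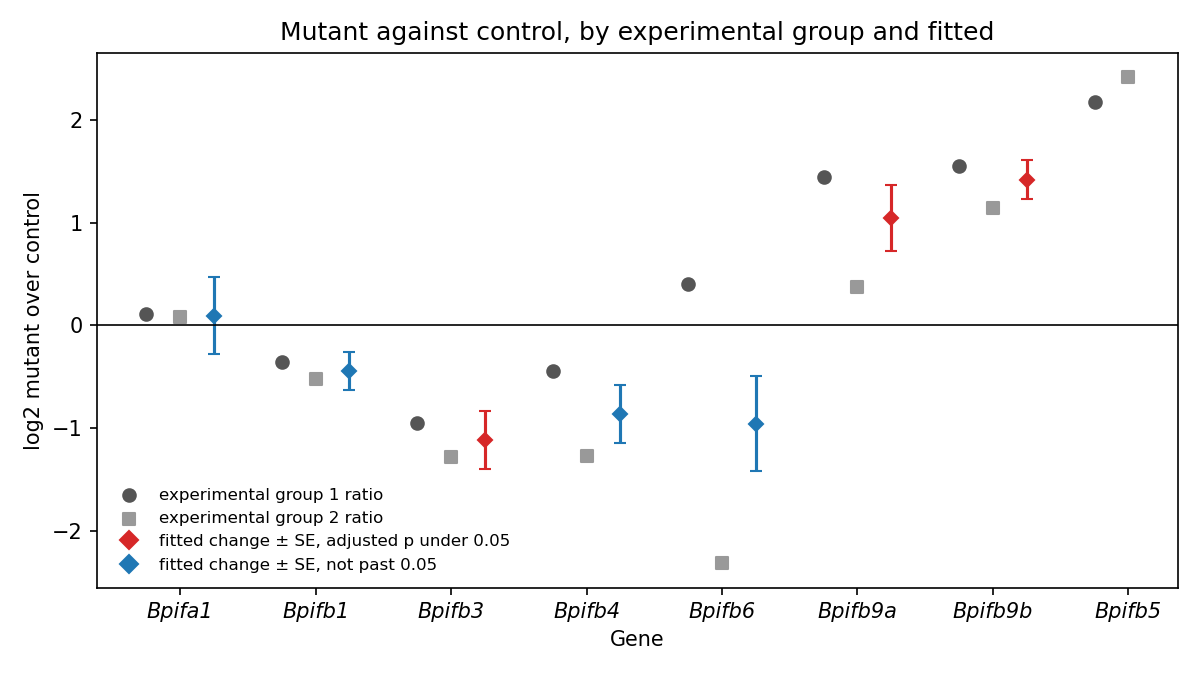
Log2 ratio of mutant to control for each BPI-fold gene. Circles and squares are the ratios within experimental groups 1 and 2, each from 1 mutant and 1 control, and diamonds are fitted log2 fold changes with SE, red where the adjusted p was under 0.05. Bpifa1 sits near 0 in both groups, Bpifb3 near -1 and Bpifb9b above 1, while the ratios of Bpifb6 lie on opposite sides of 0, at 0.40 and -2.32, and those of Bpifb5 rest on few reads (1 in control 2).

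The comparison of experimental groups showed larger changes than genotype for several members. Parents, age, sex, treatment, preparation and sequencing cannot be told apart in it. Each group was a pair of littermates, so the p-values do not cover the spread between litters. The number of alignments set aside as not unique was 62182762 and 67710764 in the libraries of experimental group 1 against 6757456 and 10308536 in those of group 2. Of the 7 members tested, 2 were higher in experimental group 2, where 17.7% of all tested genes were, and 3 were lower, where 14% were. Bpifa1 was 4.74-fold higher in experimental group 2 (log2 fold change 2.24, SE 0.38, edgeR adjusted p = 2.97e-07) and Bpifb1 was 7.17-fold higher (2.84, SE 0.18, edgeR adjusted p = 5.79e-45). Bpifb9a was 16.5-fold lower (-4.05, SE 0.33, edgeR adjusted p = 1.90e-27) and Bpifb9b 26.3-fold lower (-4.72, SE 0.20, edgeR adjusted p = 8.18e-111). The airway mucus genes and the Bpifb9 pair thus lay at opposite ends, in controls and mutants alike. Without the filter, the change of Bpifa1 was as large, at 2.31, but its SE grew to 1.76 and it did not pass (edgeR adjusted p = 0.385).

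Of the other tested members, only Bpifb6 passed for experimental group by the likelihood-ratio test. It was lower in experimental group 2 (log2 fold change -1.49, SE 0.46, edgeR adjusted p = 0.0165). The controls of the 2 groups were alike in Bpifb6, at 459.7 and 421.5 CPM, and the mutants were not, at 647.3 and 85.7 CPM, a 7.21-fold difference. That call was lost under the quasi-likelihood test (adjusted p = 0.0508), DESeq2 (adjusted p = 0.359) and without the filter (adjusted p = 0.0919). Bpifb3 (log2 fold change 0.41, SE 0.28, edgeR adjusted p = 0.279) and Bpifb4 (-0.10, SE 0.28, edgeR adjusted p = 0.835) did not pass, though Bpifb3 did under the quasi-likelihood test (adjusted p = 0.0222) and DESeq2 (adjusted p = 0.0127). Bpifb5, which was not tested, had fewer reads in experimental group 2 in both genotypes, with 1 against 14 in controls and 10 against 71 in mutants.

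**Figure D3:**
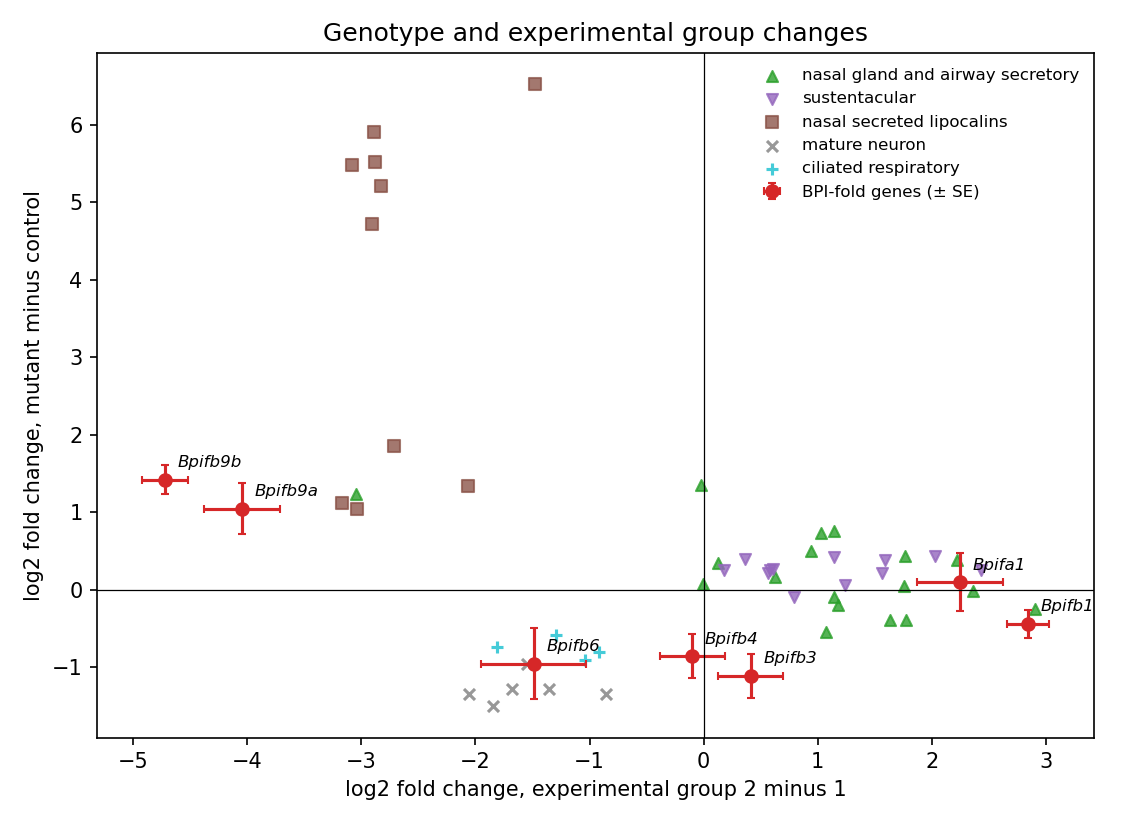
Fitted log2 fold change between experimental groups (2 minus 1, x axis) and between genotypes (mutant minus control, y axis) for the 7 tested BPI-fold genes (red, with SE) and genes of 5 lists. Bpifa1 and Bpifb1 lie on the right, at 2.24 and 2.84, among gland and airway secretory genes, Bpifb9a and Bpifb9b on the far left, at -4.05 and -4.72, and Bpifb3 and Bpifb4 near the centre line below 0.

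Genes of nasal glands and airway secretory cells were listed to set the members among them. Most encode secreted products, but the list also holds Sox9 and Sox10, which are transcription factors, Aqp5, a water channel, and Nos2, an enzyme of the cytosol. Of 22 listed genes, 18 were tested, 1 was higher in mutants and 0 lower by edgeR's likelihood-ratio test, and the median log2 fold change was 0.11. At an unadjusted p under 0.05, 2 were lower and 4 higher, and DESeq2 called 1 lower (Muc5b) and 2 higher (Lypd2 and Muc5ac). The gene that rose was Muc5ac, a gel-forming mucin, with 23.2 and 16.5 CPM in controls 1 and 2 and 45.6 and 58.8 CPM in mutants 1 and 2 (log2 fold change 1.34, SE 0.24, edgeR adjusted p = 1.32e-05). Between the experimental groups 13 of the 18 were higher in group 2, among them Pigr (the receptor that carries antibodies into mucus), Agr2 (a chaperone of mucin folding) and Reg3g (an antibacterial lectin), with log2 fold changes of 2.90, 2.36 and 2.22. Dmbt1, a mucosal scavenger receptor, was lower in group 2, by a log2 fold change of -3.04 (edgeR adjusted p = 9.68e-08). Scgb1a1, the secretoglobin that defines club cells, had no read in any library.

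The nasal lipocalins, small secreted carriers of hydrophobic molecules, were the other list of secreted proteins. Of 10 tested, 8 were higher in mutants by edgeR's likelihood-ratio test (6 by DESeq2) and 0 lower, also at an unadjusted p under 0.05 and by DESeq2. The 8 were Lcn4, Lcn11, Lcn13, Obp1a, Mup4, Mup5, Gm14743 and Gm14744. The median log2 fold change was 4.97, and all 10 were lower in experimental group 2, with a median of -2.89. The study had singled out lipocalins from these samples, so the list is not independent evidence of its direction. Bpifb9a and Bpifb9b were likewise higher in mutants and lower in experimental group 2. The 10 lipocalins summed to 2400 and 138.3 CPM in controls 1 and 2 and to 7181 and 2497 CPM in mutants 1 and 2. The sum of mutant 2 was near that of control 1, whereas Bpifb9b in mutant 2, at 7.15 CPM, was far below control 1, at 71.2 CPM.

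By edgeR's likelihood-ratio test, every cell type list held markers that passed for experimental group, but only some held markers that passed for genotype. The 12 sustentacular markers, of the supporting cells, summed to 7693 and 17830 CPM in controls 1 and 2 and to 9591 and 22100 CPM in mutants 1 and 2. For genotype 0 passed by edgeR's likelihood-ratio test, with 1 at an unadjusted p under 0.05, while the quasi-likelihood test called 1 and DESeq2 3 higher, and 8 were higher in experimental group 2, as were Bpifa1 and Bpifb1. The 7 markers of Bowman's gland and duct, all of which are also in the gland and airway list above, summed to 1882 and 3351 CPM in controls and to 2520 and 3136 CPM in mutants, with 0 passing for genotype by edgeR (2 at an unadjusted p under 0.05, and Muc5b lower by DESeq2) and 3 higher in experimental group 2. All 6 mature neuron markers (Omp, Cnga2, Cnga4, Adcy3, Gnal and Gng13) were lower in mutants (3 by DESeq2), at a median of -1.32 on the log2 scale, and lower in experimental group 2, and they summed to 14640, 5954, 8563 and 1750 CPM in control 1, control 2, mutant 1 and mutant 2. Bpifb3 was highest in control 2. So were the sums of the immature neuron, microvillar and tuft, Bowman's gland and duct, and gland and airway lists. The last of these summed to 3824, 10240, 4911 and 9694 CPM in control 1, control 2, mutant 1 and mutant 2. The immature neuron markers summed to 368.4, 418.0, 299.6 and 274.5 CPM in the same order. The microvillar and tuft markers summed to 171.0, 192.1, 124.8 and 149.8 CPM. In the immature neuron and the microvillar and tuft sums, but not in the gland sums, both mutants were below both controls, as in Bpifb3. Among the single immature neuron, microvillar and tuft markers this held for Gap43, Trpm5, Ascl3, Chat and Avil, and not for Gng8, Dcx, Stmn4, Cftr and Foxi1. Gap43, Stmn4, Trpm5, Ascl3 and Chat were highest in control 1, and Foxi1 in mutant 2. Of 4 ciliated respiratory markers, 3 (Foxj1, Tekt1 and Ccdc40) were lower in mutants by edgeR's likelihood-ratio test. The quasi-likelihood test called all 4 lower, and DESeq2 called Foxj1, Ccdc40 and Tubb4b lower. All 4 were lower in experimental group 2, with sums of 2388, 1054, 1714 and 656.0 CPM in the same order.

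Among the other lists, 1 of 5 horizontal basal markers (Egfr) was higher in mutants by edgeR's likelihood-ratio test. DESeq2 called 4 of them higher and the quasi-likelihood test 0. By the likelihood-ratio test, 2 of 4 immature neuron markers (Dcx and Stmn4) and 1 of 6 microvillar and tuft markers (Trpm5) were lower. Of 3 vomeronasal and 8 tested leukocyte markers 0 passed, also at an unadjusted p under 0.05 and by DESeq2. The leukocyte markers summed to 250.7 and 58.6 CPM in controls and to 96.0 and 93.3 CPM in mutants. The part of these cell types in the changes of Bpifb3, Bpifb9a, Bpifb9b, Bpifa1 and Bpifb1 was not tested.

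The tested genes nearest to each member were found by Euclidean distance between log2 CPM values centred on each gene's mean over the 4 libraries. With 4 points, many genes have a like pattern by their number alone. Nearest to Bpifa1 were Chi3l3 (distance 0.110), a chitinase-like protein of secretory cells and macrophages, Muc4 (0.180), a membrane mucin of epithelia, and Pon1 (0.181), an esterase. Chi3l3 had 12.3, 64.5, 15.6 and 65.9 CPM in control 1, control 2, mutant 1 and mutant 2, the same course as Bpifa1 at a far lower number of reads. Nearest to Bpifb1 were Nupr1 (0.368), Itln1 (0.373) and Pigr (0.386).

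The genes nearest to Bpifb3 were Olfr220 (0.146), an odorant receptor, Pcdhga4 (0.173), a clustered protocadherin, and Fsd1l (0.200). Those nearest to Bpifb4 were Olfr1234 (0.0209), Dnahc11 (0.0410), a dynein heavy chain of motile cilia, and Scn8a (0.0649), a sodium channel of neurons. Nearest to Bpifb6 were Odz1 (0.245) and the odorant receptors Olfr434 (0.276) and Olfr437 (0.294), all 3 under 5 CPM in every library. Bpifb9a was the gene nearest to Bpifb9b (0.883), before Olfr643 (1.07) and Gm5938 (1.08), and Bpifb9b was second nearest to Bpifb9a, after Pappa2 (0.839) and before Olfr668 (0.921). Few reads lie behind several of these: Pappa2 had 0.0468 and 0.0674 CPM in control 2 and mutant 2, or 1 read each, Olfr643, Gm5938 and Olfr668 were under 5 CPM in every library, and Olfr1234 was at 1.21 to 3.04 CPM. Among the members, the closest pairs were Bpifb3 with Bpifb4 (0.623), Bpifa1 with Bpifb1 (0.802) and Bpifb9a with Bpifb9b. Many genes outside the family lay nearer than the partner in the first 2 pairs. Bpifb4 had rank 181 among the genes nearest to Bpifb3, and Bpifb3 had rank 734 from Bpifb4. Bpifb1 had rank 142 from Bpifa1, and Bpifa1 had rank 17 from Bpifb1.

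Of the rest of the family, Lbp and Pltp were well expressed and 7 genes were at or near the limit of detection. Of these 9 other BPI-fold genes, 2 were tested and 0 passed for genotype by edgeR or DESeq2, with Pltp alone at an unadjusted p under 0.05. Lbp, which carries bacterial lipopolysaccharide in plasma, had 1441, 1471, 1380 and 1139 reads in control 1, control 2, mutant 1 and mutant 2 (log2 fold change 0.04, SE 0.17, edgeR adjusted p = 0.961). Pltp, a phospholipid carrier, had 3436, 1446, 4639 and 1392 reads (0.45, SE 0.18, edgeR adjusted p = 0.1598). Bpi, Bpifa3, Bpifa6 and Bpifb2 had no read in either control, and Bpifc, Bpifa2 and Bpifa5 had at most 39 reads in any library. In mutant 1, Bpi, Bpifa3, Bpifa6 and Bpifb2 had 15, 2, 7 and 4 reads. Evenly spread reads would give 3.48, 2.15, 2.84 and 3.78 of these. In mutant 2 the same genes had 0, 2, 0 and 1 reads. Bpifa2, Bpifa3, Bpifa5 and Bpifa6 lie inside the cluster, between the more abundant members.

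Along the chromosome, Bpifb3 and Bpifb4 are adjacent, with fitted log2 fold changes of -1.12 and -0.86, of which that of Bpifb3 passed. Their neighbour Bpifb6 moved in opposite directions in the 2 experimental groups. Bpifb9a and Bpifb9b, at the other end, were higher. Whether neighbours changed together was not tested. Of 17 annotated genes within 500 kb on either side that are not of the family, 14 were tested, 1 was lower and 0 were higher by edgeR's likelihood-ratio test. At an unadjusted p under 0.05, Cbfa2t2 was higher (log2 fold change 0.38). The lower gene was Necab3, a calcium-binding protein, with 760, 264, 432 and 85 reads in control 1, control 2, mutant 1 and mutant 2 (log2 fold change -0.96, SE 0.30, edgeR adjusted p = 0.0313), and neither the quasi-likelihood test nor DESeq2 called it. Among the other flanking genes, Asxl1, Commd7, Dnmt3b, Mapre1, Cdk5rap1, E2f1, Pxmp4, Zfp341, Chmp4b, Raly and a (nonagouti) had fitted log2 fold changes of -0.54 to 1.196. The highest was that of nonagouti (SE 1.316), from 2, 25, 9 and 25 reads in control 1, control 2, mutant 1 and mutant 2. The next highest of these was Dnmt3b, at 0.499. Efcab8, Sun5 and 1700003F12Rik were below the filter.

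**Figure D4:**
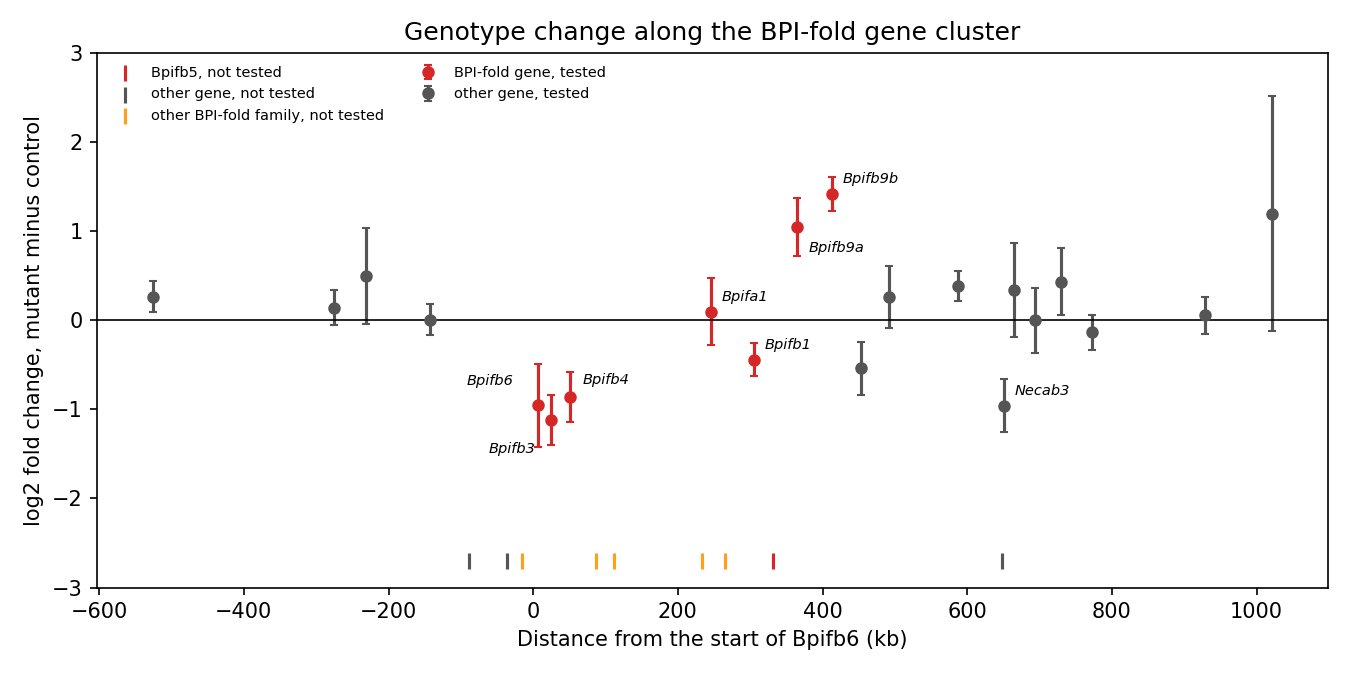
Fitted log2 fold change (mutant minus control, with SE) of genes in and around the BPI-fold cluster, by distance of the gene's midpoint from the start of Bpifb6 in kb. Red points are the tested BPI-fold genes, grey points other genes, and ticks at the bottom mark genes below the filter. Bpifb3 and Bpifb4 lie at -1.12 and -0.86, and Bpifb9a and Bpifb9b at 1.05 and 1.42. The point of Bpifb6, at -0.96, did not pass and averages ratios of 0.40 and -2.32.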

How the data were processed

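RNA-seq libraries from sorted cells of 4 mice were analysed. The authors deposited raw read counts per gene symbol. As the study's methods describe, reads matching ribosomal RNA were removed with Bowtie2 2.0.6, the remaining single-end reads were quality filtered and aligned to mm10 with TopHat2 2.0.7, and counts were made with HTSeq in its intersection-nonempty mode. A strand setting is not given in the sources used here. Reads with more than one alignment are left out by HTSeq, which bears on Bpifb9a and Bpifb9b. Such alignments numbered 62182762 or more per library in experimental group 1 and 10308536 or fewer in experimental group 2.

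The 5 tally lines per file were left out, and reads outside genes made up 22.1% to 39.4% of uniquely aligned reads. Genes with over 1 CPM in at least 2 libraries entered a fit in edgeR 4.0.16 (R 4.3.3): TMM factors, a model of genotype plus experimental group, the likelihood-ratio test, Wald SE, and Benjamini-Hochberg adjustment over 15438 genes. The study used the same test, filter rule and model. The study's code, however, left the tally lines in its table, so its library totals, CPM filter and tested set differ from those used here. The experimental group pairs the samples per the design text of the series, and in the data the deviations of same-numbered samples correlated (r = 0.522). Ratios within a group used log2 CPM with a prior count of 2. P-values cover the spread between mice that remains after genotype and experimental group are fitted, shared across genes. Each experimental group was a pair of littermates, so p-values for experimental group do not cover the spread between litters. Alternatives were DESeq2 1.42.0, the quasi-likelihood test, other filters and scaling, thinning, background subtraction and left-out samples. The test was checked on simulated data with 15438 genes, in which 7.46% of its calls were false. The rate of false calls at the spread and read number of each member was not tested.

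Of the symbols, 97.94% were matched to GENCODE annotation of GRCm38. Promoters came from RefSeq (GRCm38.p6), and alignments were made with Biopython 1.88. Members and lists were chosen with earlier results of these data known. By rule, the genes named are all members, the other family genes, genes within 500 kb, list members past the threshold and the 3 genes nearest to each tested member. Pigr, Agr2, Reg3g, Dmbt1, Scgb1a1, Muc5b and Lypd2 were named after their values were seen. One gene within the flanks is not reported here.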

Additional observations from a re-analysis of the deposited data

Results flagged for a closer look

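Bpifb6 moved in opposite directions in the experimental groups, with log2 ratios of mutant to control of 0.401 and -2.316. Each ratio rests on 1 mutant and 1 control, and the difference was not tested.

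In experimental groups 1 and 2, the median log2 ratio over the nasal gland and airway secretory genes was 0.159 and -0.048, and that over the markers of Bowman's gland and duct was 0.062 and -0.036. The leukocyte markers had medians of -1.642 and 0.882. None of these differences was tested.

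In mutant 1, 39.41% of the uniquely aligned reads lay outside genes, more than in any other library. With the evenly spread background predicted for mutant 1 subtracted, as many members passed in each direction.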

How the results depend on the processing

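Without the replicate block, that is without experimental group in the model, 0 genes were lower and 6 higher in mutants, 348 had an unadjusted p under 0.05, and 0 members passed or had an unadjusted p under 0.05 by edgeR. Leaving out each library in turn, which needs that model, gave 0 to 5 lower genes, and 33, 27, 3 and 19 higher genes without control 1, control 2, mutant 1 and mutant 2, with 0 members passing, and the lone sample of a genotype is then assumed to vary like the others. A left-out library also leaves the experimental groups unbalanced: over these fits and the single groups, the log2 fold change ran from -1.40 to 1.66 for Bpifa1, -2.44 to 1.64 for Bpifb1, -2.39 to 0.50 for Bpifb6, -2.26 to 4.04 for Bpifb9a and -2.42 to 5.13 for Bpifb9b, and so changed sign. The reversed values were -0.64 and -1.40 for Bpifa1 without control 1 and mutant 2, 1.64 and 0.30 for Bpifb1 without control 2 and mutant 1, 0.50 for Bpifb6 without mutant 2, and -2.26 and -2.42 for Bpifb9a and Bpifb9b without mutant 1. The quasi-likelihood test called 117 genes higher. Members lower numbered 2 (Bpifb3 and Bpifb4) under the quasi-likelihood test, DESeq2, CPM above 1 in all 4 samples and thinning, and 0 without a filter. Members higher numbered 1 (Bpifb9b) under the quasi-likelihood test, DESeq2 and no filter. Without a filter, 1 member was higher in experimental group 2, and the median log2 fold change of all genes moved to 0.141. The cause of these differences was not tested. RLE scaling and background subtraction changed no member's call.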
